A study of Mus musculus with 6 samples.

Results

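The 40 genes described here code for extracellular matrix proteins other than collagens and were taken from the 31065 genes of the wound libraries as a list of names, with no threshold on their levels. The list was chosen with earlier results of these data known. They comprise 10 adhesive and matricellular glycoproteins, 9 proteoglycans and their partners, 11 elastic fibre and microfibril proteins, 8 basement membrane proteins and 2 proteins that bind or process collagen. Collagens give a connective tissue its tensile strength, whereas glycoproteins such as fibronectin and tenascin give cells something to attach to or let go of, small proteoglycans such as decorin space the collagen fibrils, and microfibrils carry elastin. In a skin wound the first matrix is provisional, rich in fibrin, fibronectin and versican, and is replaced by fibroblasts. Matricellular proteins (thrombospondins, tenascin-C, periostin, SPARC) are known for signalling to cells during that repair more than for bearing load, and macrophages and platelets are known to release some of them.

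Gene expression was measured per cell with a droplet method that tags each captured transcript at its 3′ end with a unique molecular identifier (UMI), in 6 libraries with 1 library per group. All cells came from C57BL/6J mice, and each wound library also holds whatever cells the host brought to the wound, since no sample label separates host from transplanted cells. The design text of the series speaks of sorted GFP+ cells and parabiosis, which neither the sample labels nor the study's methods give for these wounds, so whether the wound cells were sorted is not known here. The 3 wound libraries came from splinted full-thickness excisional wounds taken on day 10 after wounding and treated with a hydrogel that carried control DCs, with a hydrogel that carried Ndrg2-KO DCs, or with a blank hydrogel and no cells. Ndrg2 was knocked out with Cas9 ribonucleoprotein and 3 guides in dendritic cells (DCs) grown from bone marrow with GM-CSF. The study's methods have the control DCs of the wounds nucleofected with non-targeting guides, where the labels call them untreated. The 3 cultured libraries held untreated DCs, DCs stimulated with vitamin D3 (VD3) and Ndrg2-KO DCs, and there the untreated cells were not nucleofected, so that in culture the knockout and the nucleofection cannot be told apart. Whether the animals of a group were pooled into its wound library is not stated, and with 1 library a group no difference below has a replicate check: intervals are exact 95% intervals that cover counting error only.

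Barcodes were kept as cells when they had 300 genes or more, fewer than 100000 UMIs and less than 10% of UMIs from mitochondrial genes, which left 1948 cells of the control DC wound, 5681 of the Ndrg2-KO DC wound and 3403 of the blank hydrogel wound, with 29675507 to 49240341 UMIs a library, and 7257 to 8825 cells and 116461484 to 143627482 UMIs in the cultures. Levels are given as UMIs of a gene for every 1000000 UMIs of the cells summed (CPM), a tag count that is not divided by transcript length, and differences as log2 ratios of CPM. Ndrg2 itself was at 4.62 CPM in untreated, 1.42 in VD3 and 0.884 in Ndrg2-KO DCs, and at 6.10, 3.33 and 3.29 CPM in the control DC, Ndrg2-KO DC and blank hydrogel wounds. Libraries shared at most 19 cell barcodes, which is at most 0.264% of the smaller library. The control DC wound stood apart in its makeup, with neutrophils at 23.8% of its cells against 51.0% and 46.0% in the Ndrg2-KO DC and blank hydrogel wounds, fibroblasts at 26.1% against 9.61% and 10.9%, and a median of 10795 UMIs a cell against 4415 and 5603.

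The promoters of the 4 members past 2-fold in fibroblasts of the Ndrg2-KO DC wound against the control DC wound (values below) are shown first, each as the 250 bases before the RefSeq start in GRCm38.p6, 5′ to 3′ on the strand of the gene, with capitals at matches on either strand to the TATA box letters TATAAA, to the AP-1 site letters TGACTCA or to the CCAAT box letters, which do not overlap one another in these windows. They belong to Postn (periostin; chr3:54360857-54361106, plus strand), Tnc (tenascin-C; chr4:64047016-64047265, minus strand), Hmcn1 (hemicentin-1; chr1:150993436-150993685, minus strand) and Fmod (fibromodulin; chr1:134037004-134037253, plus strand).
Postn: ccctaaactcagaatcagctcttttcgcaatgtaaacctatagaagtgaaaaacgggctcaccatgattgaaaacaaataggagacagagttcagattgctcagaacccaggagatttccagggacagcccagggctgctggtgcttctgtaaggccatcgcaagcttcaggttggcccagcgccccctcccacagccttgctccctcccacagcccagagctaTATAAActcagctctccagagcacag
Tnc: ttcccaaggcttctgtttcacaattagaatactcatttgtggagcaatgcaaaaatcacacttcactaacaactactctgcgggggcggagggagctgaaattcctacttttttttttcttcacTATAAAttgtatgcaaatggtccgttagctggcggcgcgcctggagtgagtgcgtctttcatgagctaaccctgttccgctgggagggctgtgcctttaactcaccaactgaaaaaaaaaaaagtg
Hmcn1: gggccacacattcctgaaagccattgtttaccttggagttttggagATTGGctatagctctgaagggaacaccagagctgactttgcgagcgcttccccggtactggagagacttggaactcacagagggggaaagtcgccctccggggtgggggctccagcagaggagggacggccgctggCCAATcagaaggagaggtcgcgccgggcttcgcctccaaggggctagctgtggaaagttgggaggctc
Fmod: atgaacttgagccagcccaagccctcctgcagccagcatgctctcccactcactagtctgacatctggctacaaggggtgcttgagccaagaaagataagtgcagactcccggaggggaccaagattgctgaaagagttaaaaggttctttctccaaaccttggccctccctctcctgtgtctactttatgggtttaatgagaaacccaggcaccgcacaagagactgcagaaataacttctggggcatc
The TATA box letters of Postn began 26 bases before the start and those of Tnc 126 bases before it. In Hmcn1 the CCAAT letters stood 204 bases before the start, on the other strand, and 68 bases before it, while the Fmod window held none of the 3 motifs. Of the 40 members, 30 had an entry in the table, of which 6 held TATAAA, 2 held TGACTCA and 8 held CCAAT. Among all 32536 promoters of the table, 12.3% held TATAAA, 4.45% held TGACTCA and 33.8% held CCAAT. A match is a description of these letters only.

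Fibroblasts held most of the transcripts of these genes in the wounds. Clusters were built without the 40 genes and named from markers that are not among them. The 2 fibroblast clusters (1424 cells) passed 8 or 9 of 10 markers such as Col1a1, Col5a1 and Pdgfra. They gave 53.6% of the UMIs of the control DC wound but 93.9% (93.9 to 94.0) of the UMIs of the 40 genes, 30.0% and 82.1% (82.0 to 82.2) in the Ndrg2-KO DC wound, and 31.9% and 83.3% (83.2 to 83.4) in the blank hydrogel wound. Of the 40 genes, 33 had over 90% of their UMIs in fibroblasts when the 3 wounds were summed, with a median of 98.7%. In a whole wound the 40 genes made up 2.71% of UMIs with control DCs, 1.51% with Ndrg2-KO DCs and 1.60% with the blank hydrogel, an order that follows the share of fibroblasts: within fibroblasts they made up 4.75%, 4.13% and 4.17%. The wounds are compared within cell classes below.

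**Figure D1:**
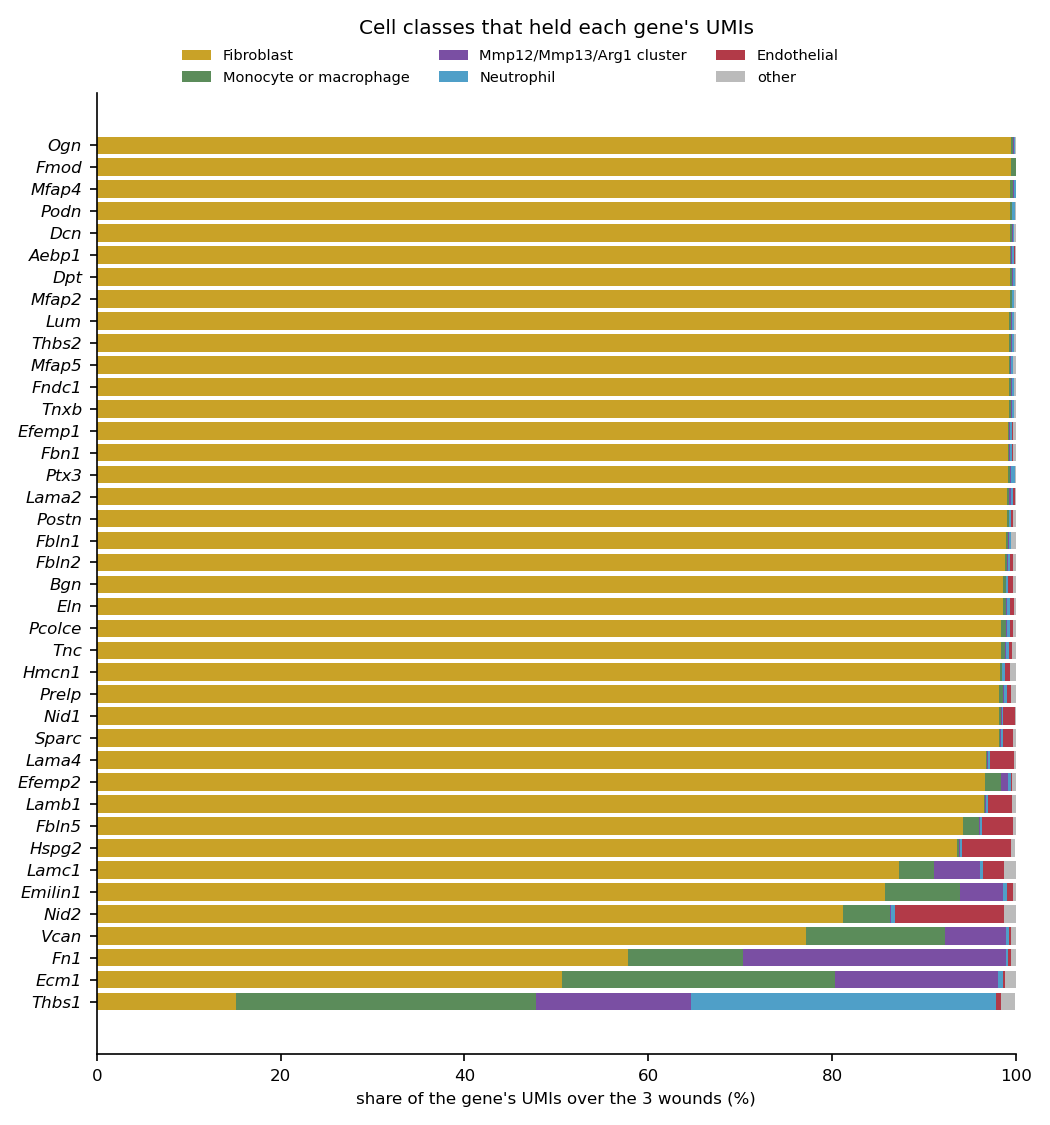
Each bar is 1 gene and its segments are the percentages of that gene's UMIs, summed over the 3 wounds, that fell in each cell class; 33 of the 40 bars are over 90% fibroblast and Thbs1, at 15.1%, is the only one under 50%.

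Thbs1, the gene of thrombospondin-1, which binds cells through CD36 and CD47 and releases TGF-beta from its latent form, was the member with a different source. Neutrophils held 33.1% of its UMIs, monocytes or macrophages 32.7%, an unnamed cluster led by Mmp12, Mmp13 and Arg1 16.9%, and fibroblasts 15.1%. In neutrophils its level was 5033 CPM with control DCs, 4164 with Ndrg2-KO DCs and 3011 with the blank hydrogel. In monocytes or macrophages, which pooled clusters 3, 5 and 7 (described with Fn1 below), it was 2270, 1991 and 2424 CPM. Inside each of these clusters the blank hydrogel wound was below the control DC wound, by log2 ratios of -0.28 (-0.34 to -0.22), -0.31 (-0.34 to -0.28) and -2.08 (-2.90 to -1.34), the last from 121 and 17 UMIs, so that the order of the pooled levels is not that of the clusters. Ndrg2-KO against control DCs was 0.37 (0.32 to 0.42), -0.41 (-0.44 to -0.38) and -1.51 (-1.92 to -1.10). Thbs1 was at 1816, 2691 and 1939 CPM in the Mmp12/Mmp13/Arg1 cluster. Fibroblasts lay below these class levels in every wound, at 667, 846 and 659 CPM. Between wounds the log2 ratio in neutrophils was -0.27 (-0.31 to -0.24) for Ndrg2-KO against control DCs and -0.74 (-0.78 to -0.70) for blank against control, in each case less than 2-fold. The neutrophils formed 2 clusters, of which cluster 1 (led by Il23a, Il1a and Il1f6) held 88 of 464 cells with control DCs, 1158 of 2900 with Ndrg2-KO DCs and 370 of 1564 with the blank hydrogel. Within cluster 0 the ratios were -0.10 (-0.14 to -0.06) and -0.71 (-0.75 to -0.67), and within cluster 1 -0.29 (-0.37 to -0.21) and -0.73 (-0.81 to -0.64). Over a whole wound Thbs1 was at 1369, 2068 and 1703 CPM, the highest with Ndrg2-KO DCs. That wound had the largest share of neutrophils. It also had the largest share of UMIs from the Mmp12/Mmp13/Arg1 cluster, at 15.5% against 7.57% with control DCs and 14.2% with the blank hydrogel. The part of each class in the whole-wound order was not tested. In the few dendritic cells of the wounds Thbs1 was at 146, 281 and 397 CPM, from 61, 231 and 363 UMIs, and blank against control was 1.44 (1.05 to 1.86). The share of all genes past 2-fold was not taken for these cells, so that the value is not set apart from other genes. The endothelial cluster had 590, 705 and 1268 CPM, but 1 cell led by pericyte markers held 135 of its 268 UMIs in the Ndrg2-KO DC wound and another 175 of 506 in the blank hydrogel wound. Without the cells led by pericyte markers the levels were 596, 379 and 927 CPM, and no ratio is drawn from so few cells. Keratinocytes had 425, 434 and 419 CPM.

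Fibronectin came from fibroblasts and from the Mmp12/Mmp13/Arg1 cluster at levels of the same order. Fn1, the adhesive glycoprotein of the provisional matrix, was at 1776 CPM in fibroblasts of the control DC wound, 1696 in those of the Ndrg2-KO DC wound and 2114 in those of the blank hydrogel wound. In the Mmp12/Mmp13/Arg1 cluster (152, 650 and 328 cells) it was at 1695, 2572 and 2937 CPM. The log2 ratio there was 0.60 (0.55 to 0.65) for Ndrg2-KO against control DCs and 0.79 (0.74 to 0.85) for blank against control, so that the control DC wound was the lowest and neither difference reached 2-fold. Monocytes or macrophages held less, 380, 502 and 746 CPM. They pooled clusters 3, 5 and 7. Fn1 was at 102, 433 and 362 CPM in cluster 3 (led by Fcrls, Ccl12 and Il10), at 1056, 956 and 1270 CPM in cluster 5 (led by Ear2 and Ms4a4c, with Ccr2) and at 8.91 to 14.9 CPM in cluster 7. The ratios against control DCs in cluster 3 were 2.09 (1.93 to 2.25) with Ndrg2-KO DCs and 1.83 (1.66 to 1.99) with the blank hydrogel, and in cluster 5 -0.14 (-0.22 to -0.07) and 0.27 (0.20 to 0.34). The difference between clusters was not tested, and the share of all genes past 2-fold was not taken inside single clusters. Neutrophils held 12.8, 18.2 and 23.7 CPM. Fibroblasts held 80.7% of the Fn1 UMIs of the control DC wound but 48.3% and 51.0% of those of the Ndrg2-KO DC and blank hydrogel wounds, the Mmp12/Mmp13/Arg1 cluster 10.9%, 37.8% and 31.6%, and monocytes or macrophages 7.97%, 12.7% and 15.6%.

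Versican, the large chondroitin sulphate proteoglycan that binds hyaluronan, also differed between wounds outside fibroblasts. Vcan stood at 93.6 CPM in monocytes or macrophages of the control DC wound, 73.1 in those of the Ndrg2-KO DC wound and 211 in those of the blank hydrogel wound. The log2 ratio of blank against control was 1.18 (1.05 to 1.30), where 1.73% of the 9353 genes tested in those cells were at least 2-fold higher. Ndrg2-KO DCs against blank hydrogel gave -1.53 (-1.65 to -1.42), where 0.639% of 9856 genes were at least 2-fold lower. Most of these UMIs came from cluster 5, which held 202 of 574 of the cells with control DCs, 429 of 1101 with Ndrg2-KO DCs and 420 of 841 with the blank hydrogel. Within that cluster Vcan was at 286, 203 and 437 CPM, so that blank against control was 0.61 (0.48 to 0.74), under 2-fold, and Ndrg2-KO against blank -1.11 (-1.23 to -0.99). In cluster 3 it was at 10.6, 19.3 and 26.2 CPM. In the Mmp12/Mmp13/Arg1 cluster Vcan was at 32.9, 119 and 128 CPM, with log2 ratios of 1.86 (1.51 to 2.22) for Ndrg2-KO and 1.96 (1.61 to 2.33) for blank against control DCs. At least 2-fold higher there were 4.86% and 2.49% of genes. The control value rests on 74 UMIs. In fibroblasts Vcan was at 453, 505 and 376 CPM, an order of wounds that differs from that of the macrophages. Ecm1 (extracellular matrix protein 1) was as high in macrophages, at 333, 291 and 363 CPM, as it was in fibroblasts within a factor of 1.5, at 404, 364 and 432 CPM.

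Endothelial cells were few (27, 18 and 11 cells) and carried basement membrane genes. Nid2, a nidogen that links laminin to collagen IV, was at 162, 126 and 256 CPM there against 31.2, 43.4 and 42.1 CPM in fibroblasts. Hspg2, which codes for perlecan, was at 655, 526 and 830 CPM against 378, 352 and 371 CPM. Both were above fibroblasts in all 3 wounds, the Nid2 levels from 85, 48 and 102 UMIs. The cluster passed 7 of 7 endothelial and also 6 of 8 pericyte or smooth muscle markers, and in the 53 of its 56 cells in which endothelial markers led, Nid2 was at 191 and Hspg2 at 698 CPM. Sparc reached 4008, 3851 and 4552 CPM in it. A cluster with T cell markers also held mast and NK cell markers and is given for its levels only, where Thbs1 was at 275, 335 and 126 CPM, Lamc1 was at 23.6, 29.1 and 37.2 CPM, Ecm1 at 38.6, 52.0 and 47.8 CPM and Nid2 at 2.83 to 3.19 CPM.

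Emilin1, a glycoprotein at the surface of elastic fibres, and the laminin chain Lamc1 were, as a share of their fibroblast level, also above the collagen gene Col1a1 in macrophages and the Mmp12/Mmp13/Arg1 cluster. Emilin1 was at 11.3, 13.9 and 12.5 CPM in monocytes or macrophages and 12.9, 12.7 and 18.8 CPM in the Mmp12/Mmp13/Arg1 cluster, and Lamc1 at 16.7, 18.4 and 24.5 CPM and 55.2, 47.3 and 64.3 CPM. Efemp2 was at 7.62, 8.68 and 7.49 CPM in monocytes or macrophages. Nid2 there was at 2.18, 5.87 and 0.728 CPM, from 16, 77 and 7 UMIs, of which cluster 7 held 4, 46 and 3. For the median member the level in immune cells was low. In neutrophils, for instance, the median member was at 0.685%, 0.486% and 0.720% of its fibroblast level in the control DC, Ndrg2-KO DC and blank hydrogel wounds, Dcn was at 0.567%, 0.346% and 0.511%, and Col1a1, a collagen gene, at 0.425%, 0.443% and 0.554%. The medians in monocytes or macrophages were 0.395%, 0.329% and 0.363%. Postn at 5.10 to 9.66 CPM and Tnc at 2.06 to 3.40 CPM in macrophages lay near that size and are not read as expression. The keratinocyte cluster (23, 42 and 64 cells), which also passed 5 of 6 T cell markers, held more in the control DC and blank hydrogel wounds but not in the Ndrg2-KO DC wound. Its medians were 6.15%, 0.499% and 5.19%, with Dcn at 5.25%, 0.0644% and 3.94%, and its Lamc1 was at 98.4, 28.2 and 24.9 CPM. The part of RNA from other cells in these keratinocyte levels was not tested. Erythroid cells had a median of 0% in each wound.

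Within fibroblasts most of the 40 genes differed by less than 2-fold between wounds, and those that differed by at least 2-fold were lower than with control DCs or, for Tnc, lower with Ndrg2-KO DCs than with the blank hydrogel. All 40 had at least 50 UMIs in each pair of wounds and were compared. Against control DCs, fibroblasts of the Ndrg2-KO DC wound had 0 members at least 2-fold higher, where 4.89% of 11339 genes were, and 4 members lower (Hmcn1, Fmod, Postn and Tnc), 10% of the 40, where 1.5% of genes were. Blank hydrogel against control DCs gave 0 members higher (3.31% of 11092 genes) and 2 lower, Hmcn1 and Fmod (1.02% of genes), of which Fmod, at -1.75, was -0.92 with the fibroblast sub-clusters given below weighted equally and -3.14 in fibroblasts without a UMI of Ptprc, Pecam1, Krt14 or Rgs5. Ndrg2-KO DCs against the blank hydrogel gave 0 members higher (2.0% of 11158 genes) and 1 lower, Tnc (1.47% of genes). The calls for Postn and Tnc were lost without the fibroblast sub-cluster nearly confined to the Ndrg2-KO DC wound, given below. The median log2 ratio over the members was -0.12, -0.07 and -0.08 in these comparisons, beside 0.10, 0.10 and 0.01 over all genes tested. Since the comparisons share libraries, a low or high value in 1 wound enters 2 of them.

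**Figure D2:**
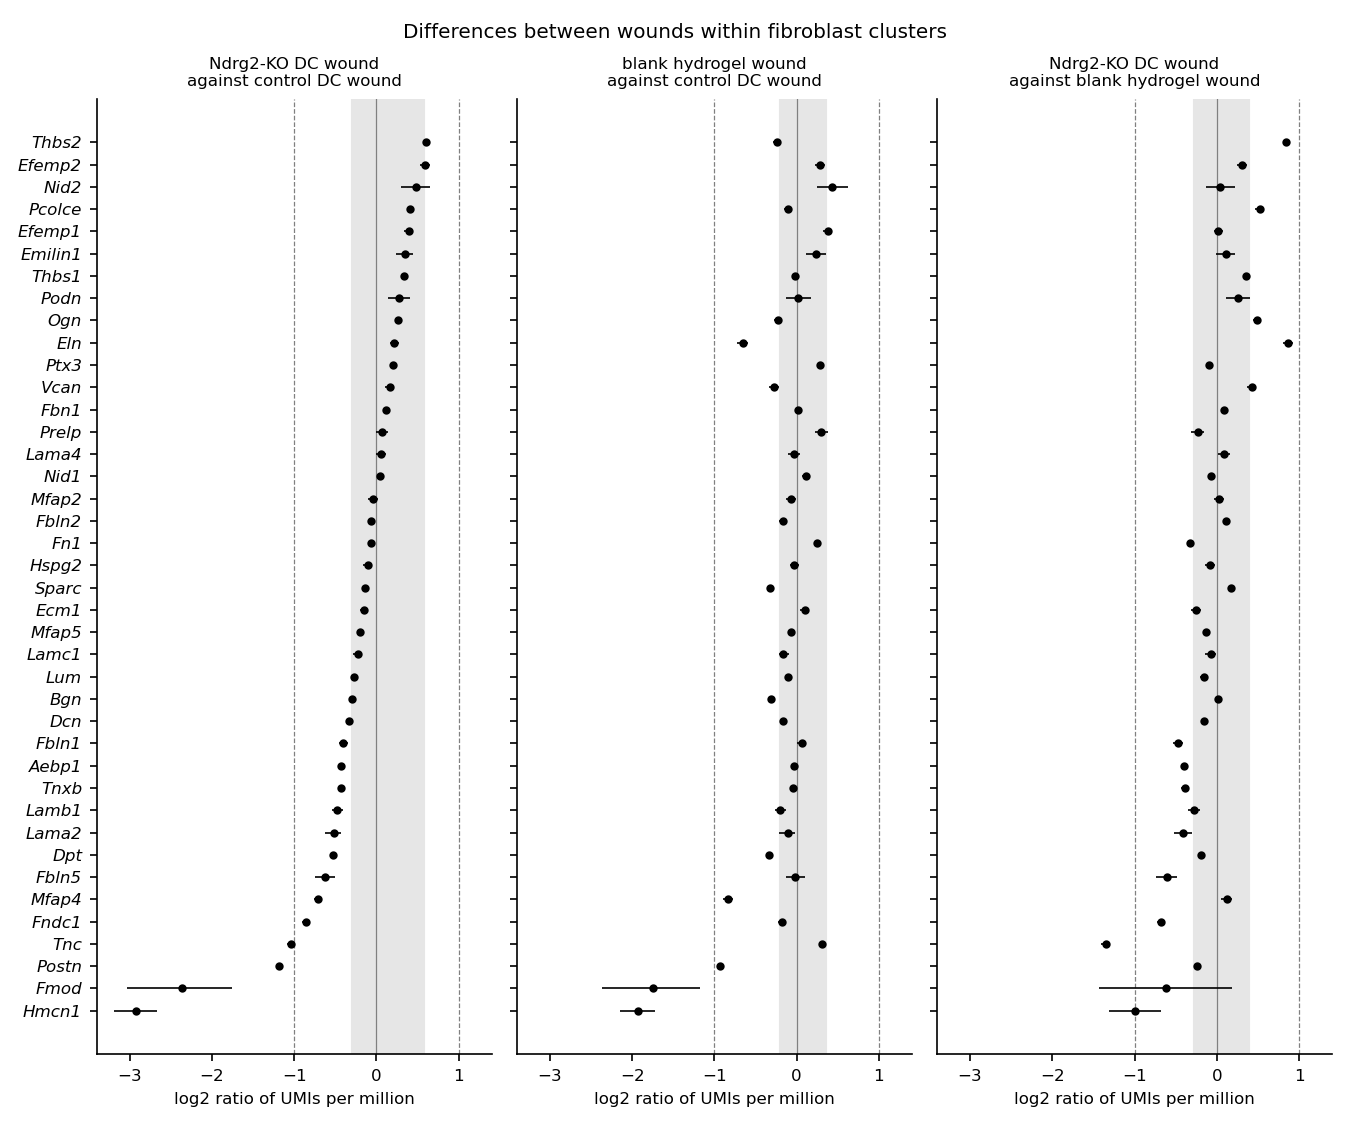
Each point is the log2 ratio of CPM in fibroblasts for 1 gene in 1 of the 3 comparisons of wounds, with its exact 95% interval for counting error; most of the 40 points lie within 1 of zero, with Hmcn1, Fmod, Postn and Tnc past -1 on the left for Ndrg2-KO against control DCs.

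Of the adhesive and matricellular genes, Postn and Tnc passed 2-fold. Postn, which codes for periostin, a matricellular protein of collagen-rich repair tissue, was at 3615 CPM with control DCs, 1601 with Ndrg2-KO DCs and 1897 with the blank hydrogel. The control DC wound was the high one, with a log2 ratio of -1.18 (-1.20 to -1.15) for Ndrg2-KO and -0.93 (-0.95 to -0.91) for blank against control. Tnc, which codes for the anti-adhesive glycoprotein tenascin-C, was at 588, 286 and 730 CPM, and here the Ndrg2-KO DC wound was the low one, at -1.04 (-1.09 to -0.99) against control DCs and -1.35 (-1.41 to -1.30) against the blank hydrogel. Blank against control gave 0.31 (0.27 to 0.36), and -0.01 with the fibroblast sub-clusters that are described below weighted equally. The 5 fibroblasts with the most Tnc held 28.7%, 23.9% and 26.8% of its UMIs in the 3 wounds. Thbs2, which codes for thrombospondin-2, an inhibitor of angiogenesis, was at 684, 1033 and 578 CPM, the highest with Ndrg2-KO DCs by 0.60 (0.56 to 0.63) and 0.84 (0.80 to 0.88). Thbs1 in fibroblasts was also the highest there, by 0.34 (0.30 to 0.38) and 0.36 (0.32 to 0.40), although the first turned to -0.12 with the fibroblast sub-clusters that are described below weighted equally. Of the 4 sub-clusters compared for the first, 2 were above and 2 below 0. In the Ndrg2-KO DC wound its level was the highest, at 1274 CPM, in sub-cluster 6, which held neutrophil and macrophage markers (55 cells, against 13 with control DCs). The part of RNA from other cells was not tested.

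Sparc, a collagen-binding matricellular protein with the highest tag count of the 40, was at 12670, 11482 and 10177 CPM, a range of 0.32 on the log2 scale, and Ndrg2-KO against control DCs went from -0.14 to 0.02 as a mean over cells. Fn1 differed by -0.07 (-0.09 to -0.04) between Ndrg2-KO and control DCs and by 0.25 (0.23 to 0.28) between blank hydrogel and control DCs. The first of these values ran from -0.16 with median-ratio scaling to 0.18 with sub-clusters weighted equally. Fndc1, a fibronectin type III domain protein, was at 727, 400 and 640 CPM, lower with Ndrg2-KO DCs by -0.86 (-0.91 to -0.82) and -0.68 (-0.73 to -0.63). Tnxb (tenascin-X) was at 680, 506 and 662 CPM. Ptx3, a pentraxin that stabilises hyaluronan matrix, was at 1586, 1816 and 1932 CPM.

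Among the proteoglycans the small leucine-rich members that space collagen fibrils differed by at most 0.53 on the log2 scale in each comparison, except Fmod. Dcn (decorin) was at 6106, 4863 and 5434 CPM, with log2 ratios of -0.33 (-0.34 to -0.31), -0.17 (-0.18 to -0.15) and -0.16 (-0.18 to -0.14) for Ndrg2-KO against control, blank against control and Ndrg2-KO against blank. Bgn (biglycan) was at 1909, 1550 and 1540 CPM, Lum (lumican) at 1346, 1118 and 1252 CPM, and Dpt (dermatopontin, which binds decorin) at 1867, 1297 and 1481 CPM. Ogn (osteoglycin) was at 604, 724 and 515 CPM, higher with Ndrg2-KO DCs than with the blank hydrogel by 0.49 (0.44 to 0.54). Prelp stood at 177, 186 and 218 CPM and Podn (podocan) at 54.8, 66.3 and 55.5 CPM. Fmod, whose protein fibromodulin guides collagen fibril assembly, was scarce, at 9.06, 1.76 and 2.70 CPM, from 144, 26 and 30 UMIs. A single fibroblast of the control DC wound held 69 of those 144 UMIs and a single one of the blank hydrogel wound held 20 of 30. Without the cell with the most Fmod UMIs in each wound the levels were 4.75, 1.36 and 0.902 CPM, and the log2 ratio for Ndrg2-KO against control DCs changed from -2.36 (-3.03 to -1.75) to -1.80 (-2.59 to -1.08), that for blank against control from -1.75 to -2.40 (-3.51 to -1.44), and that for Ndrg2-KO against blank turned from -0.62 (-1.43 to 0.19) to 0.59 (-0.57 to 1.85).

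Among elastic fibre genes, Eln and Mfap4 had the widest ranges between wounds, and none passed 2-fold. Eln, which codes for elastin, was at 378, 438 and 240 CPM and differed by 0.87 (0.80 to 0.93) between Ndrg2-KO DCs and the blank hydrogel, the largest positive value of that comparison, and by -0.65 (-0.72 to -0.59) between blank hydrogel and control DCs. Its level rested on few cells, since 5 fibroblasts held 28.5%, 29.6% and 39.7% of the Eln UMIs of the 3 wounds, and 1 cell of the blank hydrogel wound held 15.5%. Mfap4, a microfibril-associated protein, was at 549, 335 and 309 CPM, the highest with control DCs by 0.71 and 0.83 on the log2 scale. Fbn1, the fibrillin that forms the microfibril core, was at 1594, 1728 and 1618 CPM, and Mfap5 and Mfap2 differed by at most 0.20. Efemp2 (fibulin-4) was at 256, 386 and 312 CPM and Efemp1 (fibulin-3) at 330, 433 and 429 CPM, both the lowest with control DCs. Fbln5 (fibulin-5) was at 93.4, 60.6 and 92.3 CPM and Fbln1 at 382, 288 and 399 CPM, both the lowest with Ndrg2-KO DCs. Fbln2 was at 1346, 1288 and 1192 CPM and Emilin1 at 83.8, 107 and 99.0 CPM.

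Of the basement membrane genes, Hmcn1 differed the most of all members. It codes for hemicentin-1, a very long fibulin-family protein of tissue junctions, and was at 72.9 CPM with control DCs, 9.61 with Ndrg2-KO DCs and 19.1 with the blank hydrogel, from 1159, 142 and 213 UMIs. The log2 ratios were -2.92 (-3.19 to -2.67), -1.93 (-2.15 to -1.72) and, for Ndrg2-KO against blank, -0.99 (-1.31 to -0.68). No single fibroblast held over 9.39% of its UMIs in a wound. The laminin chains Lama2, Lama4, Lamb1 and Lamc1 and the perlecan gene Hspg2 lay between -0.52 and 0.09 in all comparisons, with Lama2 at 138, 96.3 and 128 CPM. Nid1 was at 721, 744 and 780 CPM. Nid2 was higher by 0.48 (0.30 to 0.65) with Ndrg2-KO DCs and by 0.43 (0.25 to 0.62) with the blank hydrogel than with control DCs. Of the collagen-binding pair, Pcolce, an enhancer of procollagen processing, was at 677, 897 and 627 CPM and Aebp1 at 1828, 1360 and 1791 CPM.

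**Figure D3:**
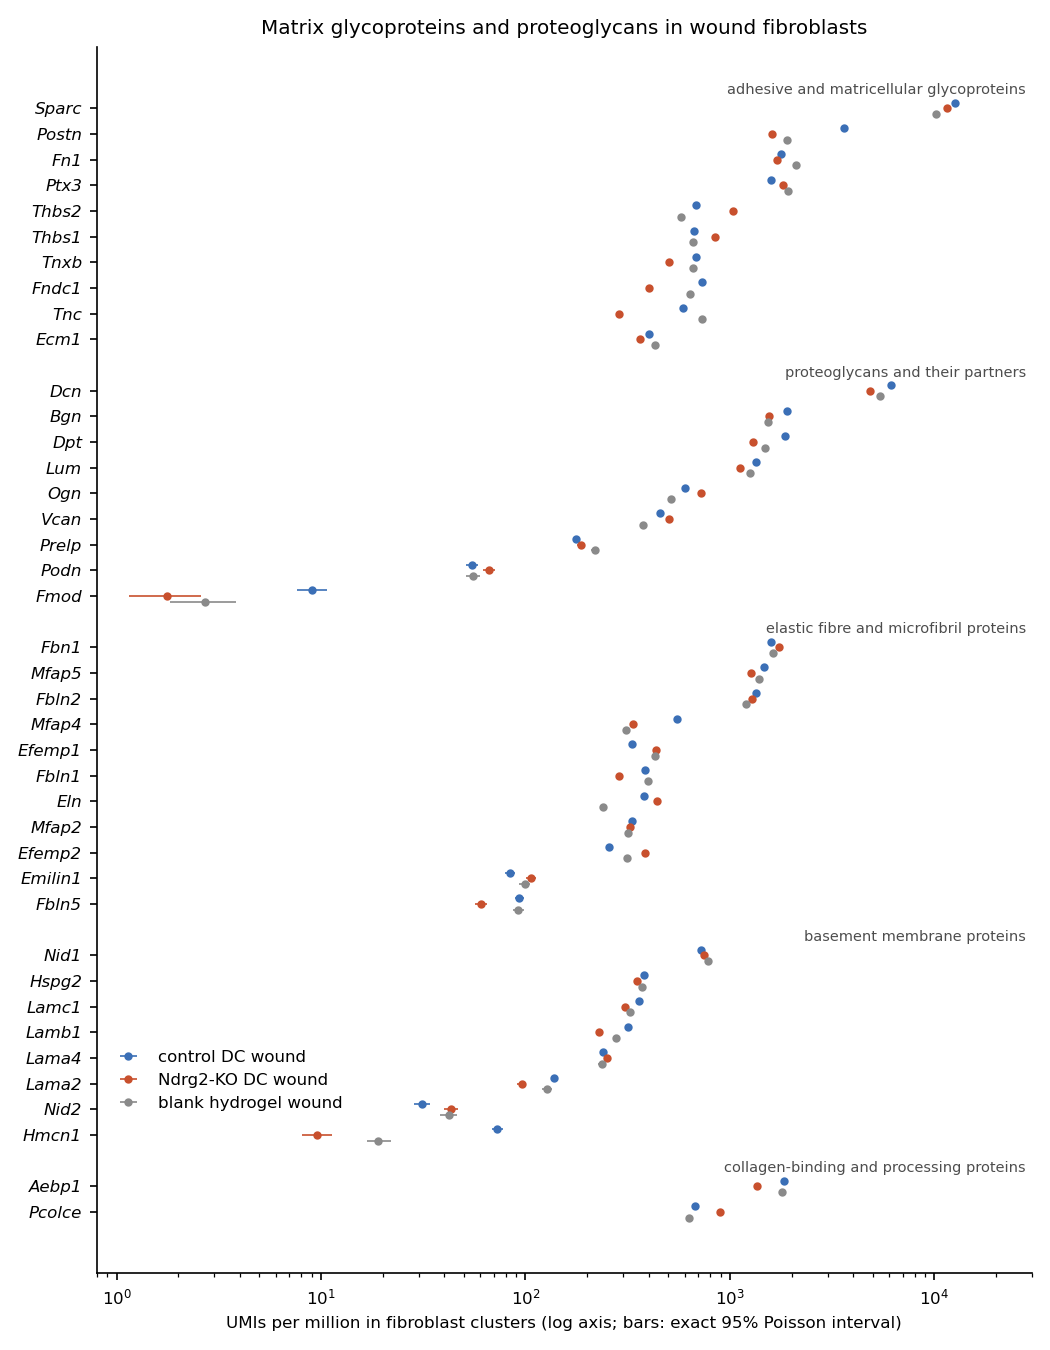
Points give CPM in the fibroblast clusters of each wound on a log axis, with exact 95% Poisson intervals, genes grouped by role; the 3 points of most genes lie close together, and those of Hmcn1 run from 9.61 to 72.9.

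The share of cells with a UMI was also taken, after each fibroblast was thinned to 5000 UMIs. Hmcn1 was seen in 18.8% (15.4 to 22.5) of fibroblasts with control DCs, 3.91% (2.40 to 5.97) with Ndrg2-KO DCs and 7.54% (5.03 to 10.8) with the blank hydrogel. Postn went the other way from its level, at 79.2% (75.4 to 82.7), 86.7% (83.5 to 89.5) and 91.1% (87.6 to 93.8), so that no order is read from its shares. Tnc was seen in 28.2%, 22.7% and 27.9% of fibroblasts, and the intervals of all 3 overlap. Without thinning the values were 34.1%, 12.6% and 20.8% for Hmcn1, 85.6%, 92.9% and 93.5% for Postn and 41.9%, 33.0% and 36.2% for Tnc. Thinning left out 12, 34 and 12 shallower cells.

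The fibroblasts fell into 8 sub-clusters, again built without the 40 genes, and these were not shared evenly between wounds. Sub-cluster 3 (led by Pgr, Ptpn5 and Ngfr) had 145 of its 150 cells in the Ndrg2-KO DC wound, and sub-cluster 2 (Smpd3, Mrgprg and Galnt15, with Cxcl13) had 124 cells with control DCs, 10 with Ndrg2-KO DCs and 102 with the blank hydrogel. Both held haemoglobin transcripts, as did sub-cluster 6, which held neutrophil and macrophage markers too, and sub-cluster 7, of a median of 3319 UMIs, held 4 of 4 Schwann cell markers. Sub-cluster 5 was proliferating and had Rgs5, a pericyte or smooth muscle marker, among its leading genes. Levels were ranked within each wound, over the sub-clusters with at least 20 of its cells. Sub-cluster 1 (C1qtnf3, Megf6 and Angptl1) was the highest for 19 of the 40 members in the control DC wound, 18 in the Ndrg2-KO DC wound and 19 in the blank hydrogel wound, and Sparc, Bgn, Lum, Postn, Fmod and Thbs2 were among them in all 3. Sub-cluster 2 was the highest for 12 members with control DCs and 11 with the blank hydrogel, with Fn1 and Ptx3 among them in both. In the Ndrg2-KO DC wound sub-cluster 4 (led by Cfd, Myoc and Car3) was the highest for 8. Sub-cluster 3 was the highest there for 6, among them Ogn at 1164 CPM and Ptx3 at 2844 CPM. Tnc was the highest in the proliferating sub-cluster 5 in each wound, at 1705, 900 and 2300 CPM, and was at 5.32 CPM in sub-cluster 3 of the Ndrg2-KO DC wound. Hmcn1 in that wound was at 22.7 CPM in sub-cluster 1 and 1.06 CPM in sub-cluster 3, from 44 and 4 UMIs.

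The wounds were then compared inside the sub-clusters with at least 20 cells in both, which were 0, 1, 4 and 5 for Ndrg2-KO against control DCs. Postn was lower with Ndrg2-KO DCs in all 4, by log2 ratios from -0.87 to -0.69, with 6458 against 3586 CPM in sub-cluster 1 and 3445 against 1882 CPM in sub-cluster 0 (led by Penk, Serpinb2 and Ereg). None of these reached 2-fold. Hmcn1 was lower in all 4, from -3.52 to -0.77, with 94.7 against 9.58 CPM in sub-cluster 0. Tnc ran from -2.25 to 0.01, with 1060 against 278 CPM in sub-cluster 0 and 282 against 284 CPM in sub-cluster 1. Thbs2 was higher in all 4, by 0.40 to 0.98, and Efemp2, Vcan and Ogn were above 0 in all 4 too, while Dcn, Fmod, Fbln1, Aebp1, Lama2, Lamb1 and Tnxb were below 0 in all 4 beside Postn and Hmcn1. The intervals lay clear of 0 in all 4 for Postn, Dcn, Fbln1, Aebp1, Thbs2 and Vcan, in 3 for Hmcn1 and Efemp2, in 2 for Ogn, Lama2, Lamb1 and Tnxb, and in 1 for Fmod. Eln was less even, from -0.34 to 2.79. With the sub-clusters weighted equally Eln passed 2-fold upward for Ndrg2-KO against control DCs and Postn, at -0.82, did not pass.

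Leaving out sub-cluster 3, the one nearly confined to the Ndrg2-KO DC wound, changed the calls for Postn and Tnc. Over the wounds together it held the lowest Postn (849 CPM) and Tnc (5.10 CPM) of the sub-clusters, so that its removal raises both ratios by construction. Sub-cluster 2, with 124 cells with control DCs and 10 with Ndrg2-KO DCs, stayed in. Postn was then at -0.96 and Tnc at -0.63 for Ndrg2-KO against control DCs, so that 2 members, Hmcn1 at -2.55 and Fmod at -2.01, stayed past 2-fold, and Tnc was at -0.94 against the blank hydrogel, which left 0 members. Blank hydrogel against control DCs in sub-clusters 0, 1, 2 and 5 gave Hmcn1 from -2.63 to -1.13, below 0 in all 4 with Fmod (in the 3 that held it) and Vcan, and Fbln5 above 0 in all 4, though each Fbln5 interval included 0. Against the blank hydrogel in sub-clusters 0, 1, 5, 6 and 7, Eln was higher with Ndrg2-KO DCs in all 5, from 0.27 to 4.14, with intervals above 0 in 4. Efemp2 was above 0 in all 5, with intervals above 0 in 3, and Lum below 0 in all 5, with intervals below 0 in 4. The part of the sub-clusters, of the haemoglobin transcripts and of the neutrophil share in the fibroblast differences was not tested further.

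**Figure D4:**
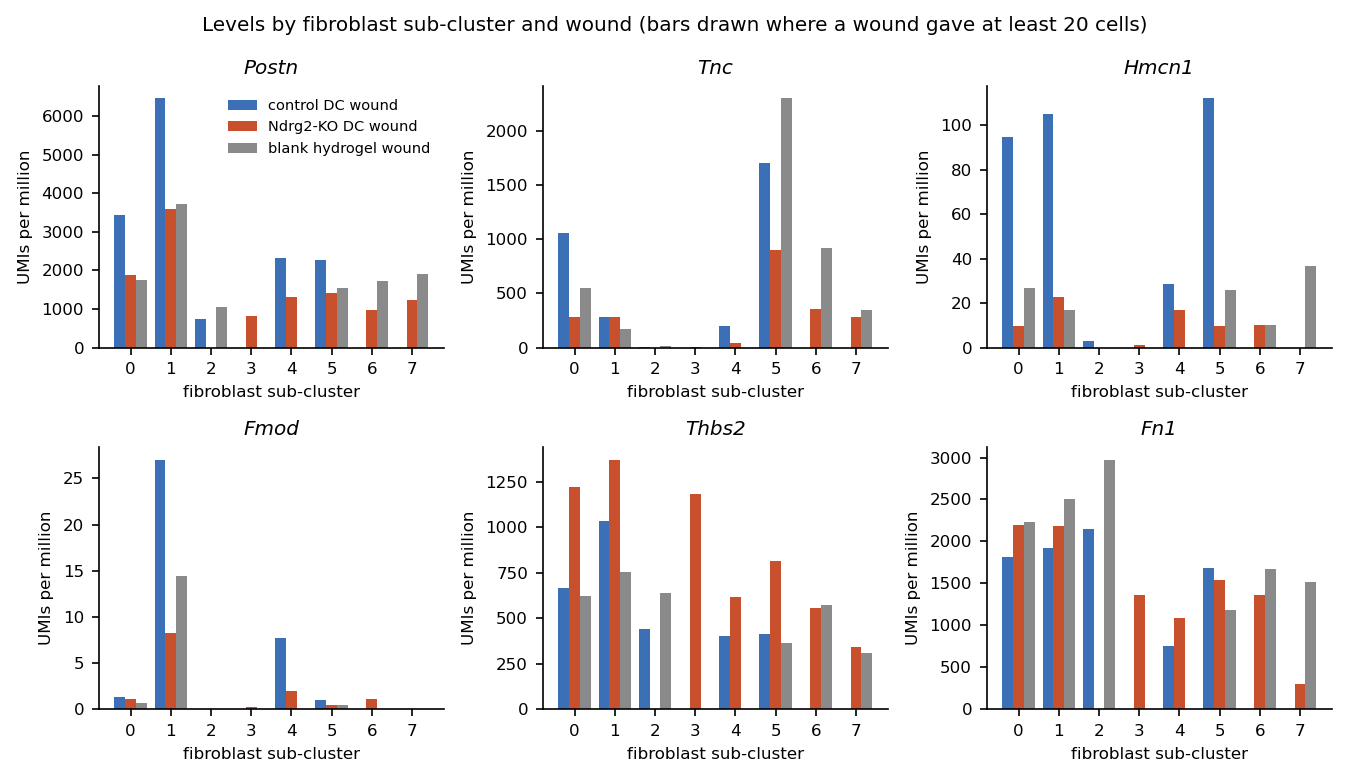
Bars give CPM of 6 genes in each fibroblast sub-cluster and wound, drawn where a wound gave at least 20 cells; Postn and Hmcn1 are higher with control DCs than with Ndrg2-KO DCs in sub-clusters 0, 1, 4 and 5, and Tnc is highest in sub-cluster 5.

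Other matrix genes of the same fibroblasts were described through 3 lists. Of 26 matrix receptors, 23 were measured well enough for Ndrg2-KO against control DCs, with 0 at least 2-fold higher and 2 lower, where 4.89% of all genes tested were higher and 1.5% lower: the collagen-binding integrin chains Itga11, at 44.5 CPM with control and 19.9 with Ndrg2-KO DCs, and Itga10, at 2.20 and 1.02 CPM. All 16 genes of microfibril-bound and crosslinking proteins were measured, and 0 were past 2-fold in any comparison of wounds. Of 36 other matrix glycoproteins and proteoglycans, 28 were measured, with 5 higher and 3 lower. Among these, Cilp (158 against 67.6 CPM), Spon1 (67.8 against 30.6) and Thbs4 (41.6 against 19.9) were higher with Ndrg2-KO than with control DCs, and Aspn, a small proteoglycan (378 against 799), Mgp, matrix Gla protein (81.9 against 187), and Tinagl1 (1.08 against 3.52) were lower. The remaining higher genes were Spp1 (403 against 14.0 CPM) and Srgn (192 against 50.8), which in the neutrophils of the same wounds were at 9036 and 5970 CPM and at 13133 and 14275 CPM. Their part from shared RNA was not tested. Blank hydrogel against control DCs, with 3.31% of all genes higher and 1.02% lower, gave 0 receptors higher and 2 lower (Itgb8 and Cd36), and 3 other glycoproteins higher (Ctgf, Spp1 and Srgn) with 5 lower (Aspn, Spon2, Sparcl1, Vtn and Matn4). Ndrg2-KO DCs against blank hydrogel, with 2.0% of all genes higher and 1.47% lower, gave 1 receptor higher (Cd36), and 6 other glycoproteins higher (Spon1, Spon2, Cilp, Thbs4, Vtn and Gas6) with 1 lower (Ctgf, at 78.6 against 157 CPM).

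The cultured DCs expressed few of the 40 genes, and fibronectin led them in Ndrg2-KO cells. The 40 genes made up 0.0603% of the UMIs of untreated DCs, 0.0183% of VD3 DCs and 0.322% of Ndrg2-KO DCs, and Fn1 gave most of the last. Fn1 was at 388 CPM in untreated, 41.1 in VD3 and 2687 in Ndrg2-KO DCs, the last above the 1696 to 2114 CPM of wound fibroblasts, which were sequenced in other libraries. Its log2 ratio against untreated DCs was 2.79 (2.78 to 2.81) in Ndrg2-KO and -3.24 (-3.28 to -3.19) in VD3 DCs. With each cell thinned to 2000 UMIs, Fn1 was seen in 21.6% (20.6 to 22.6) of untreated, 3.82% (3.40 to 4.27) of VD3 and 68.9% (67.9 to 70.0) of Ndrg2-KO DCs, where the median cell held 15804, 12089 and 16316 UMIs before thinning. No single Ndrg2-KO cell held over 0.102% of its UMIs.

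Of 17 members with enough UMIs in the pair of cultures, 10 were at least 2-fold higher in Ndrg2-KO than in untreated DCs, where 10.2% of 13329 genes were. Another 5 were lower, where 9.28% of genes were. Thbs1 was at 123, 96.8 and 382 CPM in untreated, VD3 and Ndrg2-KO DCs, and Vcan at 29.2, 8.72 and 58.8 CPM. For Vcan the log2 ratio between the Ndrg2-KO and the untreated culture, 1.01 (0.96 to 1.07), lay at the 2-fold line and was 0.68 when cells with 5% or more mitochondrial UMIs were left out. Emilin1 was at 10.4, 6.84 and 23.3 CPM, Lamc1 at 3.21, 2.67 and 10.5 CPM, and Efemp2 at 1.70, 1.19 and 4.33 CPM. Fbln1 rested on 3, 2 and 110 UMIs, Nid1 on 7, 4 and 75, Tnc on 11, 7 and 68, and Pcolce on 11, 7 and 40. These members had enough UMIs only through the Ndrg2-KO culture, so that they could be compared only by being high there. They are among the 10 higher members, and their calls are no support for that count beside the share over all genes. Ecm1, at 13.7, 7.59 and 25 CPM, and Ptx3, at 29.1, 16.8 and 29.1 CPM, did not pass 2-fold.

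Nid2 (96 against 34 UMIs) and Hspg2 (57 against 11) were below their untreated level in the Ndrg2-KO culture, at log2 ratios of -1.61 (-2.22 to -1.04) and -2.49 (-3.57 to -1.54). The value of Hspg2 was -1.52 as a mean over cells and -2.24 without the single untreated cell described next, which held 9 of the 57 UMIs. The other lower members, Dcn, Bgn and Sparc, came from a single untreated cell. That cell, of 58539 UMIs, held 121 of the 122 Dcn, 55 of the 55 Bgn and 109 of the 112 Sparc UMIs of its library, with 86 UMIs of Col1a1, 123 of Col1a2 and 4 of Ptprc. Ndrg2-KO DCs held 1 UMI of Dcn and 1 of Sparc, and VD3 DCs 0 and 1. Without that cell 9 members of the Ndrg2-KO culture were above and 2 below, since Pcolce no longer had enough UMIs. The call for Dcn, Bgn and Sparc was lost in both comparisons. The 9 still include Fbln1, Nid1 and Tnc, compared only through the Ndrg2-KO culture. Postn and Dpt had 0 UMIs in untreated DCs, which allows up to 3 UMIs, Postn had 44 in Ndrg2-KO DCs, 10 of them in 1 cell, and 29 of the 40 members had under 100 UMIs in each culture.

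VD3 DCs lay below untreated DCs for all 13 members compared, with 0 at least 2-fold higher (4.18% of 13113 genes) and 5 lower (7.44% of genes). Those were Fn1, Vcan at -1.74 (-1.84 to -1.64), and the Dcn, Bgn and Sparc of the cell above, so that 2 remained without it. Dcn, Bgn and Sparc are also among the 13 members and were compared only through that cell, so that they are no support for a fall. Thbs1, at -0.35 (-0.38 to -0.32), was the member of over 5 CPM that differed the least, and it turned to 0.25 in cells under 5% mitochondrial UMIs and to 0.21 as a mean over cells. The members' median was -0.79 beside -0.08 over all genes for VD3, and 1.17 beside -0.06 for Ndrg2-KO, against the same untreated library. Both medians include Dcn, Bgn and Sparc from the single untreated cell. That for Ndrg2-KO also includes Fbln1, Nid1, Tnc and Pcolce, compared only through the culture where they were high, so that no shift is read from the medians.

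**Figure D5:**
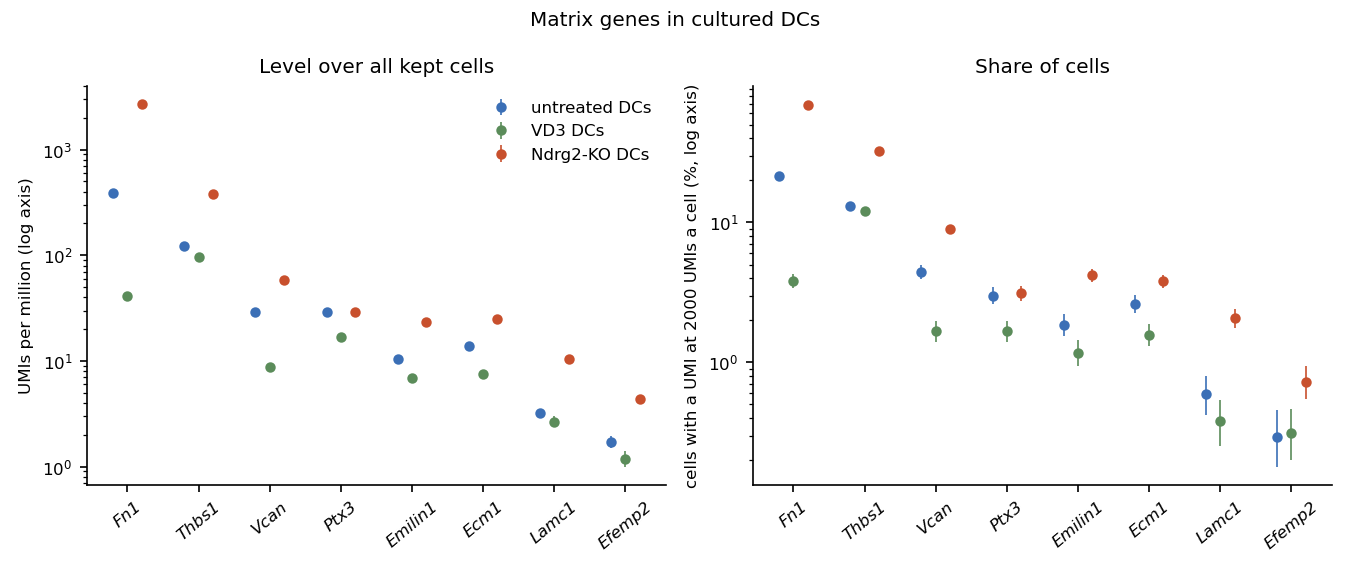
The left panel gives CPM over all kept cells of each culture and the right panel the percentage of cells with a UMI after thinning to 2000 UMIs a cell, both on log axes with exact 95% intervals, for the 8 members named with more than 100 UMIs in each culture; Fn1 runs from 41.1 in VD3 to 2687 in Ndrg2-KO DCs.

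The Ndrg2-KO culture lay mostly in clusters of its own, while the untreated and VD3 cultures shared some, such as cluster 3 (562 untreated, 1459 VD3 and 110 Ndrg2-KO cells) and the granulocyte precursor cluster 4 (928, 1116 and 34 cells). In the Ndrg2-KO culture 72.8% of Fn1 UMIs lay in cluster 0, named Csf1r-positive immature (3609 of its 3614 cells were Ndrg2-KO), where Fn1 was at 3803 CPM and is itself among the 10 leading genes beside Arg1 and Mmp13. Another 20.3% lay in the proliferating cluster 10, at 2812 CPM. In the untreated culture 49.6% lay in the proliferating cluster 6 and 48.2% in the unnamed cluster 9, at 468 and 976 CPM. Vcan differed from Fn1: 30.2% of the Vcan UMIs of Ndrg2-KO DCs lay in their mature DC cluster 5, at 108 CPM, 39.5% in cluster 0, at 45.2 CPM, and 14.3% in the unnamed cluster 12 (led by Retnla), at 134 CPM. Thbs1 was at 1049 CPM in the unnamed cluster 11 (Mmp9 and Chil1 among its leading genes), at 450 CPM in cluster 0 and at 136 CPM in mature DC cluster 5. In the mature DC clusters of VD3 and untreated cells Thbs1 was at 1.92 and 2.24 CPM and Vcan at 14.5 and 26.3 CPM.

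Receptors for these proteins in the same cultures were past 2-fold in 5 of 19 genes measured for Ndrg2-KO against untreated DCs, 4 higher and 1 lower, where 10.2% of all genes tested were higher and 9.28% lower. Cd36, a thrombospondin-1 receptor, was at 182 CPM in untreated and 1470 in Ndrg2-KO DCs, Sdc1 (syndecan-1) at 12.2 and 381 CPM, Itgb5 at 20.7 and 55.9 CPM, Sdc3 at 62.5 and 130 CPM, and Sdc4 at 16.5 and 7.39 CPM. VD3 DCs, with 4.18% of all genes higher and 7.44% lower, had 2 of 18 higher (Sdc1 and Itgb3) and 2 lower, Cd44, a hyaluronan receptor, at 73.0 in VD3 against 217 CPM in untreated DCs, and Cd36 at 61.4 against 182 CPM. Of the microfibril-bound and crosslinking genes, 3 of 10 were higher with the knockout (Ltbp3, Loxl2 and Loxl3) and 1 lower (Emilin2), and 4 of 11 higher with VD3 (Ltbp2, Loxl2, Tgfb2 and Tgfb3) and 1 lower (Tgfbi). Of 13 other glycoproteins measured, 4 were higher and 2 lower with the knockout. Spp1 (osteopontin) was at 520 and 4392 CPM in untreated and Ndrg2-KO DCs, Vwf at 7.21 and 22.0 CPM and Agrn at 1.38 and 5.03 CPM, with Lamb2 also among the higher ones and Spon1 and Matn2 the lower ones. These counts are of single libraries and are not set apart from the share over all genes by a test. Matn2 was the 1 gene of 12 past 2-fold with VD3, lower at 0.369 against 1.54 CPM.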

How the data were processed

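Gene expression was measured by droplet single-cell RNA sequencing in 6 mouse libraries, 1 per group, 3 of cultured DCs and 3 of wounds. The authors deposited UMI counts per gene and cell; the study's methods name Cell Ranger 3.1 and mm10, the file headers give 3.1.0 for the cultures and 6.0.0 for the wounds, and the submitters' processing notes name mm9 and Seurat 3.1.1. The deposited counts were used as they stood, with 31063 genes in the cultures and 31065 in the wounds.

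Barcodes with 300 or more genes, fewer than 100000 UMIs and less than 10% of UMIs from mitochondrial genes were kept as cells. Cells were clustered per setting with Seurat 5.3.0 in R 4.3.3 (2000 variable genes, 15 principal components, 15 neighbours, resolution 0.5) after the 40 genes were removed. A cluster was named where at least 3 markers reached 50 CPM and 2-fold over the other cells. Scrublet's own threshold marked at most 0.873% of a library, so doublets were kept and the top 6% of scores left out as an alternative. UMIs were summed per library and class and scaled to CPM with Python 3.11.15, numpy 2.4.6, scipy 1.17.1 and pandas 2.3.3. Log2 ratios carry exact conditional binomial intervals, CPM exact Poisson intervals and shares Clopper-Pearson intervals, all at 95% and for counting error only. A gene was compared with at least 50 UMIs in the pair, and a sum of 0 was set to 3 counts. With 1 library per group no test between conditions was possible and no p-value is given. The calculation was tested on simulated data.

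The members and the 3 other lists were chosen with earlier results of these data known. All 40 members were accounted for. Values per library were given for Fn1, Vcan, Dcn, Sparc, Thbs1, Postn and Tnc, for the 5 largest values in each direction in each fibroblast comparison, for members above fibroblasts in another class (or the 3 with the largest share there) and for members with at least 100 UMIs in a culture. Promoters came from RefSeq (GRCm38.p6).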

Additional observations from a re-analysis of the deposited data

How the results depend on the processing

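The alternatives were other cell filters, scalings, thresholds, clusterings and sets of fibroblasts, and those that leave out sub-clusters or single cells or look within single macrophage and neutrophil clusters were chosen after seeing the data. No called result changed sign in the alternatives run; of values under 2-fold, those of Fn1, Thbs1, Sparc, Tnc and Fmod that turned are given beside the results. The count of members past 2-fold in fibroblasts for Ndrg2-KO against control DCs was 9 with a 1.5-fold threshold and 2 without the sub-cluster nearly confined to 1 wound. For blank hydrogel against control DCs it was 5 with a 1.5-fold threshold, 1 with at least 200 UMIs and 1 with sub-clusters weighted equally. For Ndrg2-KO DCs against blank hydrogel it was 7 with a 1.5-fold threshold, 2 with equal weights, 2 in cells without a UMI of Ptprc, Pecam1, Krt14 or Rgs5, 2 without sub-clusters that held markers of another class, and 0 without the sub-cluster nearly confined to 1 wound. In cultured DCs the count for Ndrg2-KO was 8 under 5% mitochondrial UMIs and 6 with at least 200 UMIs. For VD3 it was 9 with a 1.5-fold threshold and 2 with at least 200 UMIs, 2 without the top doublet scores and 2 without the single cell. The Fn1 log2 ratio of Ndrg2-KO against control fibroblasts was 0.0 without mitochondrial and ribosomal genes, -0.16 with median-ratio scaling, -0.04 as a mean over cells, 0.18 with equal weights, -0.02 in cells without the 4 other markers, -0.04 without sub-clusters with other markers and 0.03 without the sub-cluster of 1 wound. In cultured Ndrg2-KO DCs the Fn1 log2 ratio was 3.66 under 5% mitochondrial UMIs, 2.81 without top doublet scores, 2.69 without mitochondrial and ribosomal genes, 2.85 with median-ratio scaling and 3.08 as a mean over cells, and that of Vcan was 0.68, 0.91, 1.07 and 1.26 under 5% mitochondrial UMIs, without those genes, with median-ratio scaling and as a mean over cells. The share of the members' UMIs in fibroblasts was 93.6%, 81.5% and 82.0% in the control DC, Ndrg2-KO DC and blank hydrogel wounds with at least 300 UMIs, 94.4%, 82.7% and 83.1% without top doublet scores, 92.6%, 81.5% and 82.1% with 30 components, 93.0%, 81.4% and 81.7% at resolution 1.0 and 93.1%, 81.5% and 82.0% with the members kept in, and 82.3% and 83.5% in the latter 2 wounds under 5% mitochondrial UMIs. Apart from the changes that fewer genes, cells or UMIs make by construction, the cause was not tested. No paired analysis was possible because each group had 1 library.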
